A study of Homo sapiens with 8 samples.

Results

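The TNF superfamily consists of ligands related to tumour necrosis factor and of their receptors on the cell surface. Its genes were identified among the annotated genes of the array by symbols beginning with TNFSF or TNFRSF and by 11 listed names, with antisense transcripts left out. This selection found 5 of 14884 measured genes. Of these, 4 encode proteins, namely the ligands TNF and CD70 and the receptors CD27 and NGFR. The remaining gene, TNFRSF10A-DT, is a long non-coding RNA that meets the rule by its symbol alone; it encodes neither a ligand nor a receptor and is described apart. Other genes of the family, among them FAS, CD40, LTA and LTB, had no named probe set here and were not analysed here. They may lie among the 37519 unnamed probe sets of 53617, so the results concern a small part of the family.

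Ligands of this family act mostly as trimers on the cell surface or after release by proteases. Receptors with a death domain can engage the adaptor FADD and caspase-8, and receptors of the wider family recruit TRAF adaptors that lead to NF-kB and JNK signalling. In the myeloid lineage TNF is a classical product of activated monocytes and macrophages. CD70 is the ligand of CD27, and this pair is known as a costimulatory signal of lymphocytes and has also been described on acute myeloid leukaemia cells.

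All arrays were made from MOLM-14, an established acute myeloid leukaemia line of monocytic character. The shCD39 cells carried a doxycycline-switched short hairpin RNA that targets ENTPD1 (4 arrays), and the shCTRL cells carried a scrambled hairpin (4 arrays). ENTPD1 encodes CD39, a cell surface enzyme that degrades extracellular ATP. Both groups received doxycycline for 72 h. The labels speak of AML clones and call the arrays of each group technical replicates, so every p-value rests on a spread between arrays that may be technical. How many clones lay behind each group is not stated in the labels. Values are RMA expression on the log2 scale, and a fold change is shCD39 minus shCTRL. The threshold throughout was an adjusted p of 0.05 from limma over all 14884 genes.

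ENTPD1 read 2.42, 2.14, 2.72 and 2.95 in shCD39 arrays 1 to 4, against 3.16, 2.88, 3.21 and 4.12 in shCTRL arrays 1 to 4. The difference of -0.79 (log2, SE 0.25) did not pass the threshold (limma, adjusted p = 0.178), and the groups overlapped. Leaving out shCTRL array 4, which read highest, gave -0.53. ENTPD1 averaged 2.56 ± 0.35 in shCD39 and 3.34 ± 0.54 in shCTRL (SD, n = 4 each), below and near the array medians of 3.13 to 3.17. Without detection calls, how far the hairpin lowered ENTPD1 cannot be read from these values. Correlations between arrays over all probe sets ran from 0.974 to 0.987. Of 12 listed AML and monocytic markers 7 were measured and 0 passed; their summed log2 level was 47.4 to 50.6 in shCD39 and 46.2 to 47.8 in shCTRL. Among these markers LYZ, the lysozyme gene, averaged 10.04 ± 0.58 in shCD39 and 8.98 ± 0.18 in shCTRL (SD, n = 4 each). Its log2 difference was 1.07 (SE 0.24, limma adjusted p = 0.0926). FLT3, a receptor kinase of leukaemic blasts, averaged 9.38 ± 0.32 in shCD39 and 9.66 ± 0.07 in shCTRL, a log2 difference of -0.29 (SE 0.15, limma adjusted p = 0.419). The means of some markers were higher in shCD39 and those of others lower, which their sum does not show. CSF1R, the receptor of a macrophage growth factor, had the largest log2 difference, averaging 5.95 ± 0.71 in shCD39 and 4.59 ± 0.26 in shCTRL (1.36, SE 0.29, adjusted p = 0.0849 by limma). MPO, the myeloperoxidase of granules, averaged 7.04 ± 0.74 in shCD39 and 7.43 ± 0.75 in shCTRL, a log2 difference of -0.40 (SE 0.39, limma adjusted p = 0.699). CD4 had a log2 difference of -0.01 (SE 0.16) and SPI1 of 0.13 (SE 0.13). The monocyte antigen CD14 averaged 2.47 ± 0.25 in shCD39 and 2.38 ± 0.13 in shCTRL, below the array medians of 3.13 to 3.17. Of the lymphoid markers, 2 of 6 for B cells and 4 of 8 for T and NK cells were measured; the B cell sums were 9.48 to 9.79 in shCD39 and 9.75 to 10.5 in shCTRL, and the T and NK cell sums were 16.9 to 18.7 in shCD39 and 16.6 to 17.9 in shCTRL. The deposited table gives no detection calls, and every probe set has a positive value, so no marker reads 0.

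The DNA upstream of the start site was available for 2 of the 5 genes, the ligand TNF and the receptor CD27, and is shown for these. Each run holds the 250 bases before the start, 5′ to 3′ on the plus strand, from RefSeq on GRCh38.p14, at chr6:31575315-31575564 for TNF and chr12:6443642-6443891 for CD27. Capitals mark the motif matches found.
TNF: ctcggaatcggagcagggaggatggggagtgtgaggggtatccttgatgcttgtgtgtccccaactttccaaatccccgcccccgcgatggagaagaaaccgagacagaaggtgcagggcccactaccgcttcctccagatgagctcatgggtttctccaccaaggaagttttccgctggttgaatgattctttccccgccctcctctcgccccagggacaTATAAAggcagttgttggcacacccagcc
CD27: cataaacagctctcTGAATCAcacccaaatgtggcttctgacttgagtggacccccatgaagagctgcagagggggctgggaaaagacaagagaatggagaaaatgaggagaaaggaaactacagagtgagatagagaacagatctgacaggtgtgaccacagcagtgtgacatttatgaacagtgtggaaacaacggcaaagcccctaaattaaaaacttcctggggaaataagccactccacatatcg

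Searched on both strands were the TATA box TATAAA, the AP-1 site TGANTCA, the cAMP response element TGACGTCA and the NF-kB consensus; no match overlapped another. The TNF window held a TATA box 29 to 24 bases before the start and no exact match to the other motifs. The CD27 window held an AP-1 site 236 to 230 bases before the start and no exact match to the others. Over 27305 genes with such a window, 13.1% held the TATA box, 8.06% the AP-1 site, 2.03% the cAMP response element and 11.8% the NF-kB consensus. G and C made up 57.2% of the TNF window and 46.0% of that of CD27. A match describes the letters and shows no binding. Sites that differ from the searched letters were not sought, so a window without a match may still hold a variant site.

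None of the 5 genes passed the threshold. By limma 0 of 5 were called, where 14 genes or 0.0941% of all genes were, and at an unadjusted p under 0.05 there were 2 (NGFR and TNFRSF10A-DT), where 14.7% of all genes were. TNF, CD70 and NGFR had higher means in shCD39, and CD27 and TNFRSF10A-DT lower ones. The median log2 fold change over the 5 genes was 0.25, beside 0.01 over all genes. In 0 of 5 genes did the groups separate, where 7.85% of all genes did so. The lowest 2-sided exact permutation p was 0.0571, for NGFR, and the smallest that 4 against 4 arrays allow is 0.0286.

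TNF, the founding cytokine of the family, had the largest difference of the 4 protein-coding genes. It read 8.05, 7.32, 8.001 and 7.31 in shCD39 arrays 1 to 4, against 7.24, 7.62, 7.20 and 6.80 in shCTRL arrays 1 to 4. Arrays 1 and 3 of shCD39 stood above all shCTRL arrays, while arrays 2 and 4 lay inside their range, below shCTRL array 2. The means were 7.67 ± 0.41 in shCD39 and 7.21 ± 0.33 in shCTRL (SD, n = 4 each). This gave a log2 fold change of 0.46, or 1.37-fold, with an SE of 0.21 and an unadjusted 95% interval of -0.01 to 0.92 (adjusted p = 0.347 by limma, exact permutation p = 0.143). In these bulk samples more cells that express a gene and more RNA per cell cannot be told apart. The summed AML and monocytic markers given above overlapped between the groups but reached 50.6 in shCD39, against at most 47.8 in shCTRL. That sum mixes markers with higher means in shCD39, LYZ and CSF1R among them, and markers with lower ones, FLT3 and MPO among them. The part of these markers in the TNF difference was not tested.

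TNF was covered by 8 probe sets, of which 7 held identical values on every array and count as 1 measurement. The brightest probe set, used above, differed from these. The identical probe sets averaged 7.61 ± 0.38 in shCD39 and 7.14 ± 0.36 in shCTRL, a log2 fold change of 0.47 (SE 0.23). Both profiles therefore gave nearly the same difference, and in both shCD39 arrays 1 and 3 lay above all shCTRL arrays.

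CD70, the ligand of CD27, read 9.01, 9.21, 8.89 and 8.84 in shCD39 arrays 1 to 4, against 8.74, 8.70, 9.02 and 8.46 in shCTRL arrays 1 to 4. All shCD39 arrays were above shCTRL arrays 1, 2 and 4, and only shCD39 array 2 was above shCTRL array 3. The means were 8.99 ± 0.17 in shCD39 and 8.73 ± 0.23 in shCTRL. The log2 fold change was 0.26 (SE 0.14, interval -0.04 to 0.56), which did not pass (limma adjusted p = 0.419, exact permutation p = 0.143).

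Its receptor CD27 differed in the opposite direction, also short of the threshold. CD27 read 3.25, 3.67, 3.52 and 3.58 in shCD39 arrays 1 to 4, against 3.63, 3.63, 4.01 and 3.78 in shCTRL arrays 1 to 4. Arrays 1, 3 and 4 of shCD39 were below every shCTRL array, and array 2 was just above shCTRL arrays 1 and 2. The means were 3.51 ± 0.18 in shCD39 and 3.76 ± 0.18 in shCTRL, and the log2 fold change was -0.26 (SE 0.13, interval -0.54 to 0.02, limma adjusted p = 0.385, exact permutation p = 0.0857). Without detection calls, whether CD27 was expressed cannot be read from these values.

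NGFR, the low-affinity neurotrophin receptor p75, carries a death domain and is best known from neurons. It read 4.21, 4.13, 4.22 and 4.02 in shCD39 arrays 1 to 4, against 3.95, 3.74, 4.05 and 3.83 in shCTRL arrays 1 to 4. The groups overlapped only by shCD39 array 4, which lay below shCTRL array 3. The means were 4.14 ± 0.09 in shCD39 and 3.89 ± 0.14 in shCTRL. The log2 fold change was 0.25 (SE 0.11, interval 0.01 to 0.49), or 1.19-fold (limma adjusted p = 0.317, exact permutation p = 0.0571). Its mean over all arrays was not above the median of gene means. As for CD27, whether NGFR was expressed cannot be read without detection calls.

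**Figure D1:**
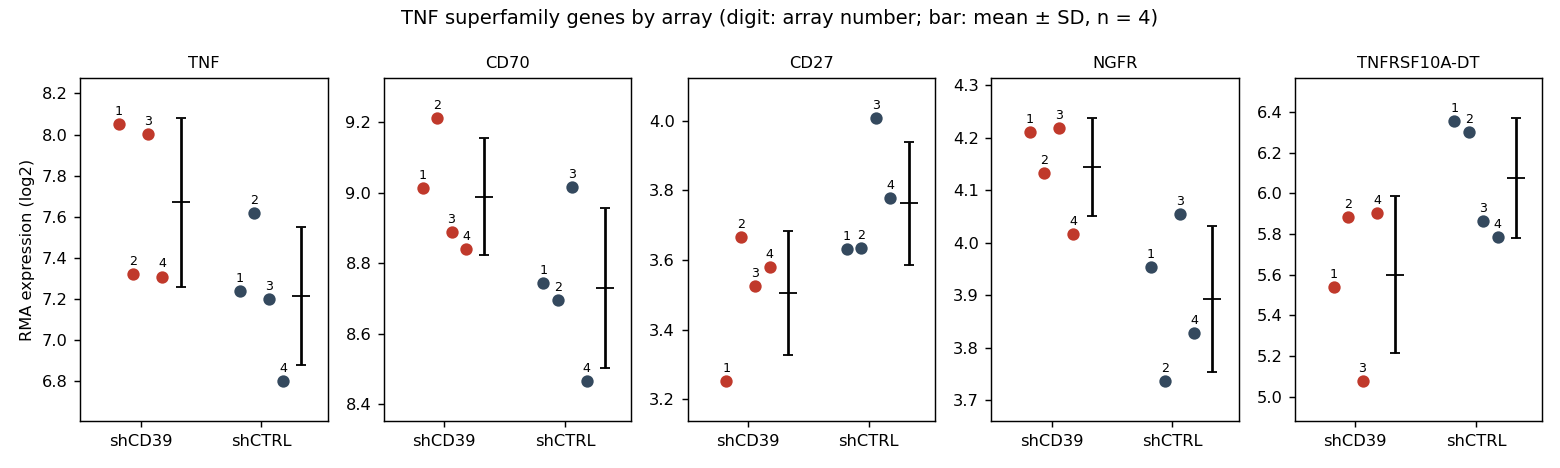
Expression (RMA, log2, vertical axes with their own ranges) of the 5 genes in the shCD39 arrays (left in each panel) and the shCTRL arrays (right); points are arrays with their numbers, and bars are mean ± SD of 4 arrays. In every panel at least 1 array of a group lies within the range of the other group.

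TNFRSF10A-DT is transcribed divergently from the gene of the death receptor TNFRSF10A, whose own level was not analysed here. Its brighter probe set read 5.54, 5.88, 5.08 and 5.90 in shCD39 arrays 1 to 4, against 6.36, 6.30, 5.87 and 5.78 in shCTRL arrays 1 to 4. Only shCD39 arrays 1 and 3 lay below all shCTRL arrays. The means were 5.60 ± 0.39 in shCD39 and 6.08 ± 0.29 in shCTRL, which gave -0.48 on the log2 scale (SE 0.20, adjusted p = 0.293 by limma, exact permutation p = 0.171). The dimmer probe set of this gene gave 4.46 ± 0.19 in shCD39 and 4.46 ± 0.20 in shCTRL. The probe sets thus disagreed, and the lower mean in shCD39 rests on 1 of 2 probe sets.

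**Figure D2:**
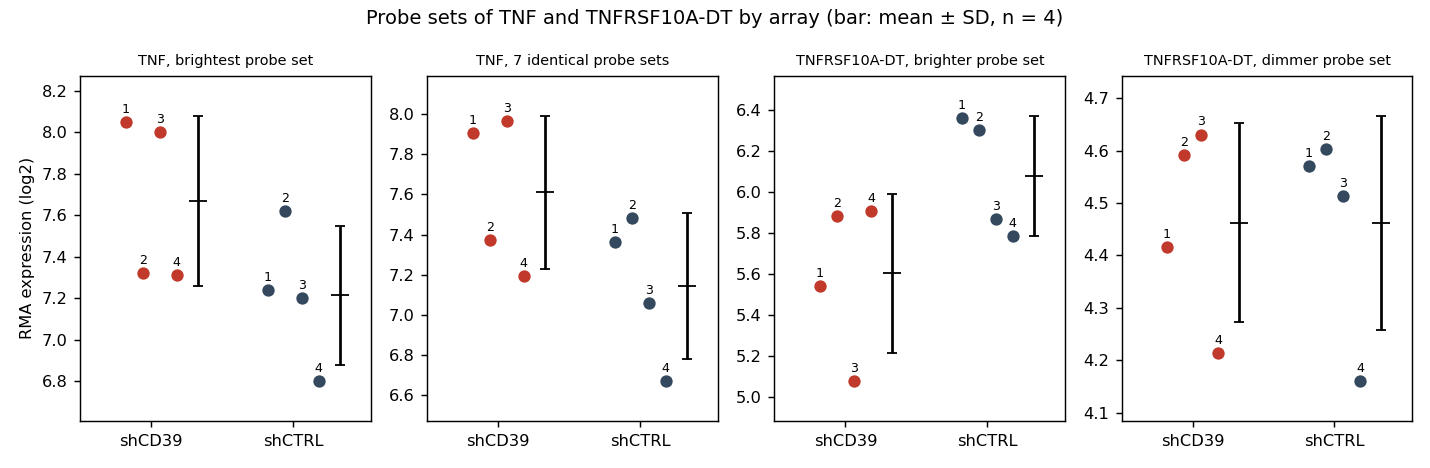
Expression (RMA, log2) of the probe sets of TNF and TNFRSF10A-DT by array, shCD39 left and shCTRL right; bars are mean ± SD of 4 arrays. The 2 TNF profiles give log2 fold changes of 0.46 and 0.47, whereas the TNFRSF10A-DT probe sets give -0.48 and 0.00068.

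The directions did not depend on any 1 array, but the sizes did. With each array left out in turn the log2 fold change ran from 0.32 to 0.59 for TNF, from 0.17 to 0.35 for CD70, from -0.31 to -0.17 for CD27, from 0.20 to 0.30 for NGFR and from -0.58 to -0.30 for TNFRSF10A-DT. The smallest differences of CD70 and TNF came without shCTRL array 4, those of TNFRSF10A-DT without shCD39 array 3, of CD27 without shCD39 array 1 and of NGFR without shCTRL array 2. None of these values passed the threshold, the lowest limma adjusted p being 0.16. Leaving out 1 array separated the groups in a few cases: NGFR without shCD39 array 4, CD70 and NGFR without shCTRL array 3, TNF without shCTRL array 2 and CD27 without shCD39 array 2. With 7 arrays, 10% to 17% of all genes separated. Without shCD39 array 4 the count over all genes was 423 and without shCTRL array 1 it was 0 (1574 at an unadjusted p under 0.05), with 0 of the 5 genes in either case.

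**Figure D3:**
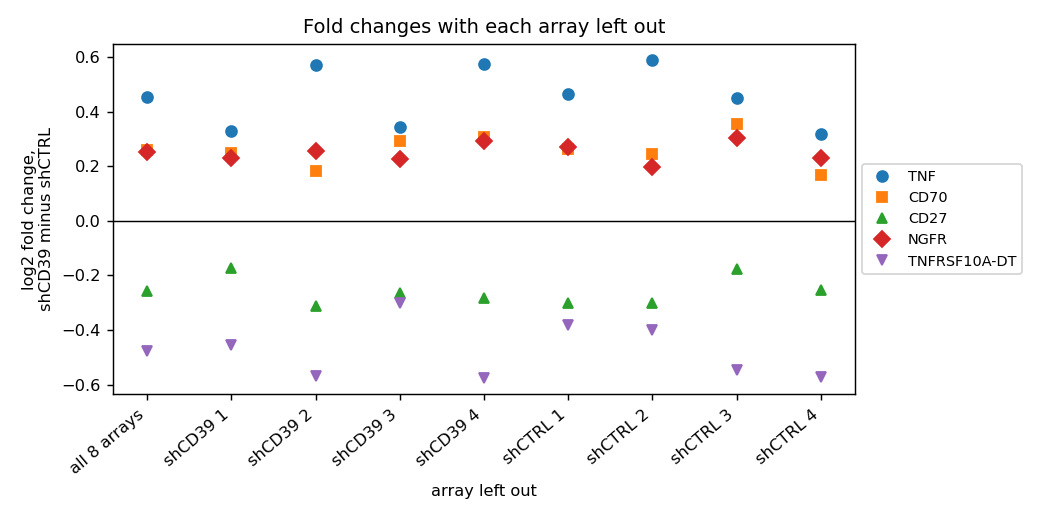
Log2 fold change (shCD39 minus shCTRL, vertical axis) of the 5 genes with all 8 arrays and with each array left out (horizontal axis). TNF, CD70 and NGFR stay above 0 and CD27 and TNFRSF10A-DT below 0 in all 9 fits shown.

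Ligand and receptor genes of the family whose symbols fall outside the naming rule showed small differences. They are not counted as family genes here and are counted in the pathway list below. EDA, the ligand ectodysplasin, had a log2 fold change of 0.01 (SE 0.12), its receptors EDAR and EDA2R 0.21 (SE 0.16) and 0.08 (SE 0.11), and the receptor RELT 0.00114 (SE 0.13). The 95% intervals, -0.26 to 0.29 for EDA, -0.13 to 0.55 for EDAR, -0.16 to 0.32 for EDA2R and -0.28 to 0.28 for RELT, leave room for a change of modest size. EDA2R averaged 2.84 ± 0.11 in shCD39 and 2.76 ± 0.12 in shCTRL, below the array medians, and EDAR 3.34 ± 0.33 in shCD39 and 3.13 ± 0.13 in shCTRL, near them. EDA averaged 3.72 ± 0.18 in shCD39 and 3.70 ± 0.15 in shCTRL. Whether EDA, EDAR or EDA2R was expressed cannot be read from these values. RELT averaged 5.85 ± 0.15 in shCD39 and 5.85 ± 0.20 in shCTRL, and its arrays overlapped throughout.

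Genes of the signalling pathway of the family comprised 84 listed names, of which 59 were measured and 0 passed (limma). At an unadjusted p under 0.05 there were 13 (9 higher and 4 lower in shCD39), or 22%, beside the 14.7% of all genes. Groups separated in 8 genes, or 13.6%, beside 7.85% of all genes; 7 were higher in shCD39, as were 3.61% of all genes, and 1 was lower, as were 4.23% of all genes. The median log2 fold change was 0.01, like that over all genes. The 8 genes were CYLD, CFLAR, MLKL, JUN, ADAM17, TNIP3 and EDARADD, higher in shCD39, and TRAIP, lower. ADAM17, TNIP3 and EDARADD were named after their values were seen. TNIP3 averaged 1.63 in shCD39 and 1.48 in shCTRL, and EDARADD averaged 2.46 in shCD39 and 2.23 in shCTRL. These means lay below the array medians of 3.13 to 3.17, so whether TNIP3 and EDARADD were expressed cannot be read.

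Among 7 measured genes of caspases and death, 0 passed, and CFLAR and MLKL separated the groups. CFLAR encodes c-FLIP, which blocks caspase-8 at death receptors. It read 5.94, 6.38, 6.07 and 6.10 in shCD39 arrays 1 to 4, against 5.44, 5.44, 5.51 and 5.56 in shCTRL arrays 1 to 4. Every shCD39 array was above every shCTRL array, and the difference was 0.64 (log2, SE 0.12, adjusted p = 0.0771 by limma, exact permutation p = 0.0286). It passed without shCD39 array 4 (adjusted p = 0.0269), a fit in which 423 of all genes passed, against 14 with all arrays. This pass therefore came with a rise in the count over all genes and is not particular to CFLAR. Over the fits with 1 array left out its adjusted p ran from 0.0269 to 0.243. MLKL, the executor of necroptosis, read 7.08, 7.39, 7.36 and 7.25 in shCD39 arrays 1 to 4, against 6.64, 6.96, 6.58 and 7.05 in shCTRL arrays 1 to 4 (difference 0.46 on the log2 scale, SE 0.13, adjusted p = 0.149 by limma). MADD, a death domain protein that binds a TNF receptor, had -0.19 (SE 0.12), and DAP3, a protein of the mitochondrial ribosome also linked to apoptosis, -0.18 (SE 0.12).

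In the list of kinases and NF-kB, 17 genes were measured, with a median of -0.03 and 0 passing. JUN, the AP-1 subunit downstream of JNK, had the largest log2 fold change of the pathway. It read 4.62, 4.36, 4.87 and 3.93 in shCD39 arrays 1 to 4, against 3.69, 3.17, 3.64 and 3.25 in shCTRL arrays 1 to 4, so the groups did not overlap. The log2 fold change was 1.01 (SE 0.20), or 2.01-fold (limma adjusted p = 0.0783, exact permutation p = 0.0286). The shCTRL mean of 3.44 ± 0.26 lay near the array medians, so without detection calls whether JUN was expressed in shCTRL cannot be read, and the fold is a difference between readings. JUN passed without shCD39 array 4, at 1.18 (adjusted p = 0.00826), again in the fit where 423 of all genes passed. Its adjusted p ran from 0.00826 to 0.208 with 1 array left out. MAPK9, which encodes the kinase JNK2, had -0.39 (SE 0.15), the kinase MAP3K8 0.35 (SE 0.14) and BCL3, an atypical IkB protein, 0.32 (SE 0.17). The NF-kB subunits had log2 fold changes of -0.03 for RELA, -0.13 for NFKB1, 0.09 for NFKB2, 0.16 for RELB and -0.17 for REL; they were named after their values were seen.

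The list of adaptors and ubiquitin ligases had 17 measured genes, 8 with higher and 9 with lower means in shCD39 and 0 passing. RBCK1, which encodes HOIL-1 of the linear ubiquitin assembly complex, averaged 6.60 ± 0.22 in shCD39 and 7.11 ± 0.38 in shCTRL (a log2 difference of -0.50, SE 0.18, adjusted p = 0.226 by limma). CYLD, a deubiquitinase that removes such chains, averaged 6.89 ± 0.26 in shCD39 and 6.47 ± 0.21 in shCTRL (0.42, SE 0.15, limma adjusted p = 0.228). The groups overlapped for RBCK1 and not for CYLD. TNIP1, a partner of the NF-kB inhibitor A20, had -0.28 (SE 0.17), and the adaptor TRAF1 -0.19 (SE 0.13). The TRAF1 means, 2.89 in shCD39 and 3.08 in shCTRL, lay below the array medians of 3.13 to 3.17, so whether TRAF1 was expressed cannot be read.

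Ligand processing and partners held 18 measured genes with a median of 0.09, 13 with higher and 5 with lower means in shCD39 and 0 passing. ADAM17, the protease that releases TNF from the cell surface, read 6.97, 7.04, 7.22 and 7.13 in shCD39 arrays 1 to 4, against 6.91, 6.87, 6.93 and 6.70 in shCTRL arrays 1 to 4. The groups did not overlap, and the difference was 0.23 (log2, SE 0.11, adjusted p = 0.338 by limma). RHBDF2, which encodes the iRhom2 partner that ADAM17 needs in myeloid cells, had the opposite sign, -0.56 (SE 0.25, adjusted p = 0.317 by limma), or -0.28 without shCD39 array 1. GRN, the secreted lysosomal protein progranulin, had 0.73 (SE 0.25, limma adjusted p = 0.215). It passed without shCD39 array 4, at 0.97 (adjusted p = 0.0316), where 423 of all genes passed. Its adjusted p ran from 0.0316 to 0.412 over the fits with 1 array left out. In shCD39 array 4 GRN read 8.74, inside the shCTRL range of 8.42 to 8.98. RELL1, a RELT-like protein, had 0.42 (SE 0.17). TRAIP, a ubiquitin ligase found through its binding to TRAF proteins and known for its work at replication forks, read below every shCTRL array in all 4 shCD39 arrays (log2 difference -0.58, SE 0.13, adjusted p = 0.0933 by limma, exact permutation p = 0.0286).

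**Figure D4:**
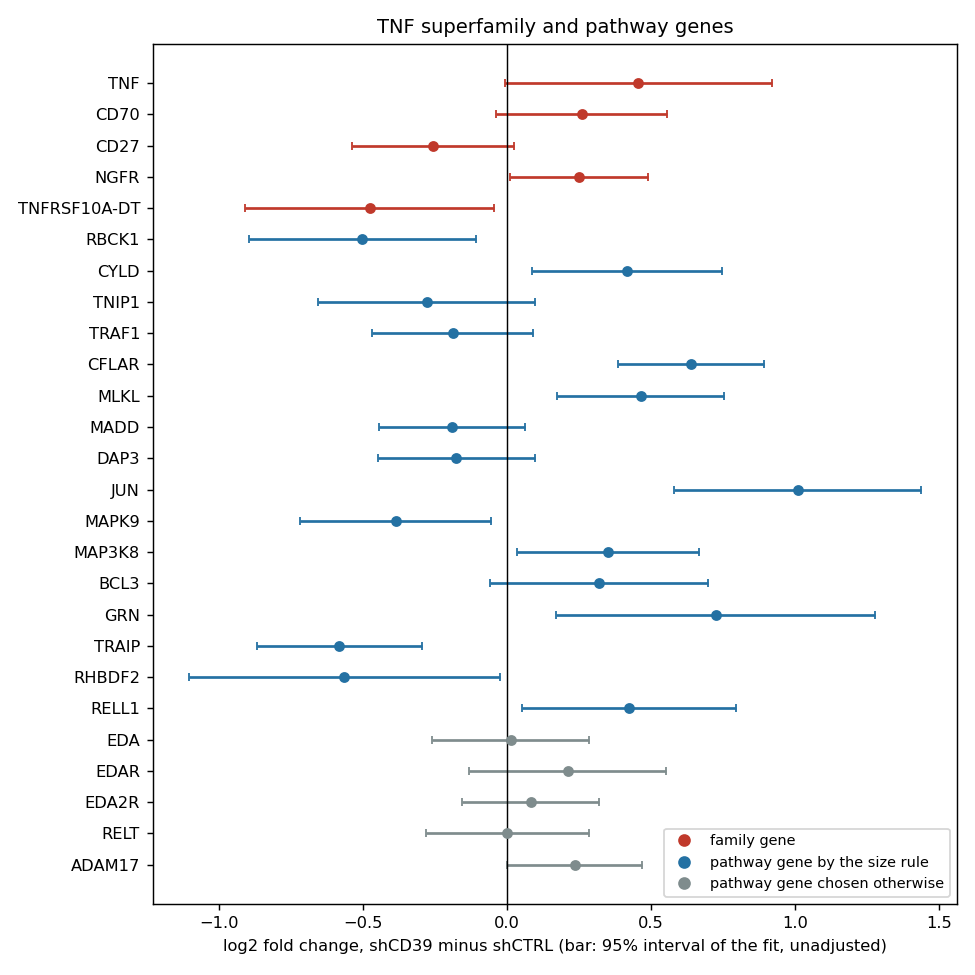
Log2 fold change (shCD39 minus shCTRL, horizontal axis) with unadjusted 95% intervals of the 5 family genes and of the related genes named in the text; colours separate family genes, pathway genes taken by size and pathway genes chosen otherwise. JUN lies farthest right at 1.01 and TRAIP farthest left at -0.58, and no gene shown passed the adjusted threshold.

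The shCD39 arrays did not place these genes alike. Of the 5 family genes, 4 lay outside the shCTRL range in shCD39 array 1, 2 in array 2, 4 in array 3 and 1 in array 4, where 54.1%, 52.2%, 55.3% and 46.1% of all genes did. For the 59 pathway genes the numbers were 36, 31, 32 and 37. Array 4 thus had the lowest number for the family genes and the highest for the pathway list; this difference was not tested.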

How the data were processed

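The authors deposited log2 expression values per probe set for 8 arrays. Per the submitters' processing notes RMA of the oligo package was used (no version stated). RMA sets arrays to a shared distribution before values are summarized per probe set, which removes differences in total RNA. The deposited values do not share a distribution exactly, with array medians from 3.13 to 3.17. The array model and genome build behind the probe sets were not stated. The number of arrays limits the precision, as arrays have no depth.

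Probe sets were named through the supplied platform annotation, updated by Entrez ID against RefSeq genes of GRCh38.p14. Of 53617 probe sets, 16098 had exactly 1 symbol. For a gene with several probe sets, the one with the highest mean over all arrays was used. Differences between shCD39 and shCTRL were tested with limma 3.58.1 (lmFit, eBayes) in R 4.3.3, 2-sided, with Benjamini-Hochberg adjustment over 14884 genes and no filter. Single genes were also compared by a 2-sided exact permutation test over arrays. The procedure was tested on simulated data with independent noise for each gene and array, which holds no effect shared by the genes of an array. That test checked that added changes are recovered and bears on no result given here. Figures used matplotlib 3.10.9 in Python 3.11.15.

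The family genes and lists were chosen with earlier results of these data known. Named are all family genes, ENTPD1 and, per pathway list, the 4 genes with the largest change; EDA, EDAR, EDA2R, RELT and the genes so marked were added otherwise. Of the listed markers of erythroid cells and platelets 3 of 6, and of fibroblasts and epithelium 3 of 6, were measured, with 0 called. The erythroid and platelet sums overlapped, at 10.2 to 11.0 in shCD39 and 9.82 to 10.7 in shCTRL. The fibroblast and epithelium sums did not overlap, at 14.8 to 15.1 in shCD39 and 14.1 to 14.7 in shCTRL. The alternatives were quantile normalization, removal of array medians, only genes above the median of gene means, averaged probe sets per gene, array weights, an intensity trend in eBayes with robust settings, a block for the replicate number, leaving out arrays, all probe sets fitted together and a minimum change of 1.5-fold.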

Additional observations from a re-analysis of the deposited data

Results flagged for a closer look

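Array groups of 4 were examined for a value far from the other 3 in 54 groups of the named genes, and 2 were found; chance flags about 1 in 20 groups. RHBDF2 read 4.01 in shCD39 array 1, where the nearest other shCD39 array read 5.09, and this gap took up 0.845 of the range of the group. RELL1 read 5.67 in shCTRL array 2, where the nearest other shCTRL array read 5.35, and this gap took up 0.909 of the range of the group. None of the 5 family genes had such a value in either group.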

How the results depend on the processing

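Under every alternative run, 0 of the 5 family genes passed the threshold, and all 83 of their recomputed fold changes kept their sign, with limma adjusted p from 0.138 to 0.653. The intensity trend, the replicate block, the filter on gene means and the joint fit of all probe sets leave fold changes unaltered. So does averaging for a gene with 1 probe set. In those runs the sign could not change, and only the p-values were recomputed. The count over all genes, 14 as deposited, was 5 after quantile normalization, 64 among genes above the median of gene means (where CD27 and NGFR were not in the fit), 22 with an intensity trend, 124 with array weights, 368 without both arrays numbered 4, 2 with all probe sets fitted together, and 0 to 423 with 1 array left out. With the replicate number as a block it was 6; the deviations of same-numbered arrays from their group means correlated at -0.04 to 0.06, so the numbers were not taken as pairs. Family genes whose groups separated numbered 0 to 2 with 1 array left out and 1 without both arrays numbered 4. The median of the family genes ran from 0.17 to 0.30 with 1 array left out. Pathway genes past the threshold were 0 as deposited and 1 among genes above the median (CFLAR, beside 64 over all genes). They were 2 with array weights (CFLAR, JUN, beside 124) and 3 without both arrays numbered 4 (CFLAR, JUN, GRN, beside 368). With 1 array left out they were 0 to 3, the 3 coming without shCD39 array 4, beside 423. The median of the pathway genes was 0.067 after quantile normalization, -0.0013 with array medians removed and -0.026 among genes above the median. It was -0.0016 without both arrays numbered 4, and -0.016 to 0.062 with 1 array left out. Fold changes near 0 changed sign: EDA gave -0.0027 with array medians removed and -0.040 to 0.093 with 1 array left out; RELT gave -0.015 with array medians removed, -0.033 as the mean of its probe sets, -0.0077 with array weights, -0.052 without both arrays numbered 4 and -0.087 to 0.075 with 1 array left out. The causes were not tested.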
